A study of Rattus norvegicus with 12 samples.

Results

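The comparison described here set the thoracic aorta of spontaneously hypertensive rats (SHR) given the high dose of BSJY against that of SHR given water. BSJY is a preparation of 8 herbal granules, named in the labels by these letters only. The 2 groups were found by their sample titles, SHR-Bh replicates 1 to 3 and SHR-C replicates 1 to 3, so 6 of the 12 arrays of the series enter it. All rats were male. SHR-Bh received BSJY dissolved in water, at a dose that the labels give as 6.75 g/ml/day, by daily gavage for 16 weeks from 12 weeks of age, and SHR-C received an equal volume of water. Their labelled age is 32 weeks, whereas 12 weeks plus 16 weeks is 28 weeks, and this difference was not resolved. Beside these groups, SHR-Ca (SHR given captopril, an inhibitor of angiotensin-converting enzyme, at a labelled 0.125 g/ml/day) and WKY (normotensive Wistar-Kyoto rats given water) appear with 3 arrays each, because all 12 arrays shared one estimate of the spread. The labels place 40 SHR in 4 groups, with 5 rats in a cage, and do not say whether each array stands for 1 rat, so p-values measure the spread between these arrays, which may be in part technical. The labels also state that the aortas were irradiated, with no dose and no group named. A low-dose BSJY group is named in the labels and is not analysed here.

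The SHR strain was bred for high blood pressure and develops it without surgery or diet, so it serves as a model of essential hypertension. The thoracic aorta is an elastic artery whose wall holds mainly smooth muscle cells, lined by endothelium and covered by a layer of fibroblasts, nerves and fat. Sustained pressure thickens and stiffens this wall, and drugs that lower pressure act in part on the contraction and growth of its smooth muscle. In such bulk tissue, fewer cells of a type and less RNA per cell cannot be told apart. None of 42 genes that mark smooth muscle, endothelium, fibroblasts, fat, macrophages, nerve, skeletal muscle or liver was named on the array, so the labelled tissue could not be checked against its markers. None of 25 genes of blood pressure control (the renin-angiotensin, endothelin, nitric oxide and natriuretic peptide systems among them) was named either.

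The array was a single-colour Agilent design with 38321 probes that are not controls, most of them known only by a design number. A level here is the log2 intensity of a probe relative to the 75th percentile of its array, and a difference is the mean level of SHR-Bh minus that of SHR-C, so 1 unit is 2-fold. Probes flagged by the scanner software as well above background made up 58.8% to 68.6% of the total on the SHR-C arrays (64.6% ± 5.14, SD, n = 3) and 51.2% to 62.4% on the SHR-Bh arrays (58.4% ± 6.28, SD, n = 3; exact two-sided permutation p = 0.3, where 0.1 is the smallest this design allows). SHR-Bh 2 had the highest floor, with a lowest level well above background of -3.51 against -4.98 to -4.58 on the other 5 arrays. The test took the probes that were bright throughout SHR-C or throughout SHR-Bh, meaning well above background on each of the 3 arrays, and these were 22173 probes (57.9%). Of these, 18712 passed in both groups, 3173 passed only through SHR-C and 288 only through SHR-Bh, so the probes that the filter let in through 1 group were mostly ones that are dim in SHR-Bh.

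One treated array stood apart from the other two. SHR-Bh 2 and SHR-Bh 3 had a Pearson correlation of 0.989 across the tested probes, while SHR-Bh 1 reached 0.956 and 0.954 with them. Across the same probes SHR-Bh 1 had 0.949 with SHR-C 1, 0.979 with SHR-C 2 and 0.978 with SHR-C 3. On SHR-Bh 1, 741 probes lay at least 4-fold from both other SHR-Bh arrays, 686 of them above and 55 below, against 43 on SHR-Bh 2 and 46 on SHR-Bh 3. Among the controls, SHR-C 1 had 777 such probes, SHR-C 2 had 13 and SHR-C 3 had 21. The scan times in the file headers placed no array of SHR-Bh in a session with an array of SHR-C, so session and treatment are linked only through SHR-Ca arrays. SHR-C 1 and SHR-Bh 2 were each alone in a session, so a fit with session as a block leaves them out of the difference. That fit sets SHR-Bh 1 and 3 against SHR-Ca 3, and SHR-C 2 and 3 against SHR-Ca 1 and 2. The 3 WKY arrays had a session of their own, with 74.0% to 87.9% of probes well above background. Strain and session cannot be told apart in levels set beside WKY. Values from fits without single arrays stand beside the counts of calls and beside several named genes.

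In the BSJY-treated aortas 54 of 22173 probes were lower than in the untreated ones (0.244% of those tested, limma, adjusted p under 0.05), and the count of higher probes was 0 (0%). At an unadjusted p under 0.05 the counts were 1612 lower (7.27%) and 1047 higher (4.72%), together 12.0% of tested probes. This lean towards lower probes depended on filter and processing. With only probes well above background on all 6 arrays the counts were 830 lower and 1057 higher, and with no filter 2174 and 1274. Quantile normalization gave 1228 and 1215, and normexp background correction 429 and 655. Groups that did not overlap at all were seen for 2373 lower probes (10.7%) and 1523 higher probes (6.90%) of the 22086 with a value on all 6 arrays. The median difference over all tested probes was 0.02, but it varied with level. In 5 classes of equal size by mean level over the 6 arrays it ran from -0.27 in the dimmest to 0.125 in the brightest. The filter let in more probes through SHR-C than through SHR-Bh, so these values only describe the classes. None of the 54 probes named a gene. They were 52 probes known by a design number and 2 probes for ultraconserved elements, which are stretches of genome kept without change between human, rat and mouse and often transcribed. The call of the 54 was not stable: with only the 6 arrays of both groups in the fit, with only the 9 SHR arrays, with scan session as a block, or without SHR-Bh 3, 0 probes passed in either direction. All 54 kept a lower value in SHR-Bh in each of these fits. Except with the session block this was fixed in advance, because the groups of all 54 did not overlap. When SHR-C 1 was left out 13 probes were lower, and dropping SHR-C 2 or SHR-C 3 in its place gave 1 and 27. Without SHR-Bh 1 the count was 85 lower and 49 higher, and without SHR-Bh 2 it was 8 lower. The fits that lacked SHR-C 2 or SHR-C 3 each called 1 higher probe.

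**Figure D1:**
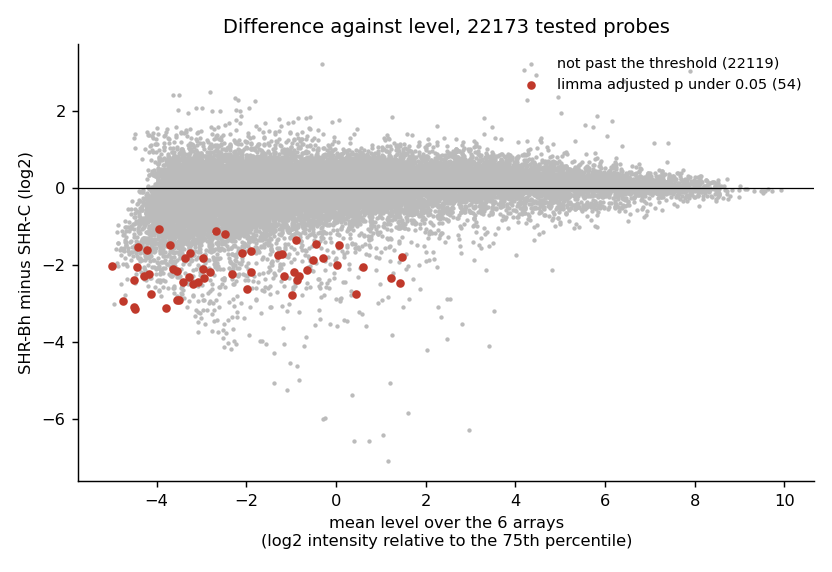
Each point is 1 of 22173 tested probes, with the mean level over the 6 arrays on the x axis and the difference, SHR-Bh minus SHR-C, on the y axis, both in log2. The 54 called probes (red) all lie below 0, and several larger differences did not pass.

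The called probes had a median level of -1.87 in SHR-C and -3.89 in SHR-Bh, where the median of all tested probes lay between -0.59 and -0.55 on each of the 6 arrays. In SHR-Bh, 24 of them were well above background on all 3 arrays, 8 on 2 arrays, 9 on 1 array and 13 on none, and 30 had entered the test through SHR-C alone. The 24 probes measured on every SHR-Bh array were lower by 2.31 to 6.93-fold (median 4.09-fold). For the 17 measured on only 1 or 2 SHR-Bh arrays the size of the fall rests in part on values not above background. For the 13 that were not well above background in SHR-Bh only an approximate bound is given. It sets the SHR-C mean against the floor of each SHR-Bh array, or the reading itself where higher, and ranged from 1.38-fold to 4.61-fold lower. That floor is the lowest level well above background of any probe on the array. A probe can lie above it without being well above background, so these folds are not strict minima. Adjusted p-values of the 54 ran from 0.011 to 0.049 (limma). By mean level over the 6 arrays, in 5 classes of equal size from dimmest to brightest, the calls were 28, 7, 14, 5 and 0. That mean includes the low SHR-Bh levels themselves, and the filter had let in more probes through SHR-C than through SHR-Bh, so these counts only describe where the calls lie.

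By the rule for probes without a gene name, which asked for at least 1 array well above background in each group, design probes ASRNV20030531 and ASRNV20003716 are given. The level of ASRNV20003716 was 0.74, 0.45 and 0.08 on SHR-C 1 to 3 and -1.76, -2.70 and -2.64 on SHR-Bh 1 to 3. All treated arrays lay below all untreated ones and all 6 were well above background, and the difference was -2.79 (SE 0.36, limma adjusted p = 0.018). ASRNV20030531 was dimmer, at -1.63, -1.87 and -2.60 on the SHR-C arrays and -4.01, -5.83 and -5.03 on the SHR-Bh arrays. Its groups did not overlap either, with a difference of -2.92 (SE 0.42, limma adjusted p = 0.027), but only 1 SHR-Bh array was well above background, so the size of this fall is not measured on the other two. No rise passed the threshold, so no higher probe is named.

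The 54 probes are best seen beside the other groups. Their median level was -3.74 in SHR-Ca and -1.40 in WKY, which had a scan session of its own. The SHR-C mean was above the WKY mean for 34 of the 54 probes, although the SHR-C median of -1.87 was below that of WKY. Captopril was compared with the same SHR-C arrays, so values of both treatments against SHR-C share those controls and are only set side by side. ASRNV20003716 had a mean level of -3.59 in SHR-Ca and -3.00 in WKY, against 0.42 in SHR-C and -2.37 in SHR-Bh. ASRNV20030531 had -5.22 in SHR-Ca and -2.80 in WKY, against -2.03 in SHR-C and -4.96 in SHR-Bh.

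**Figure D2:**
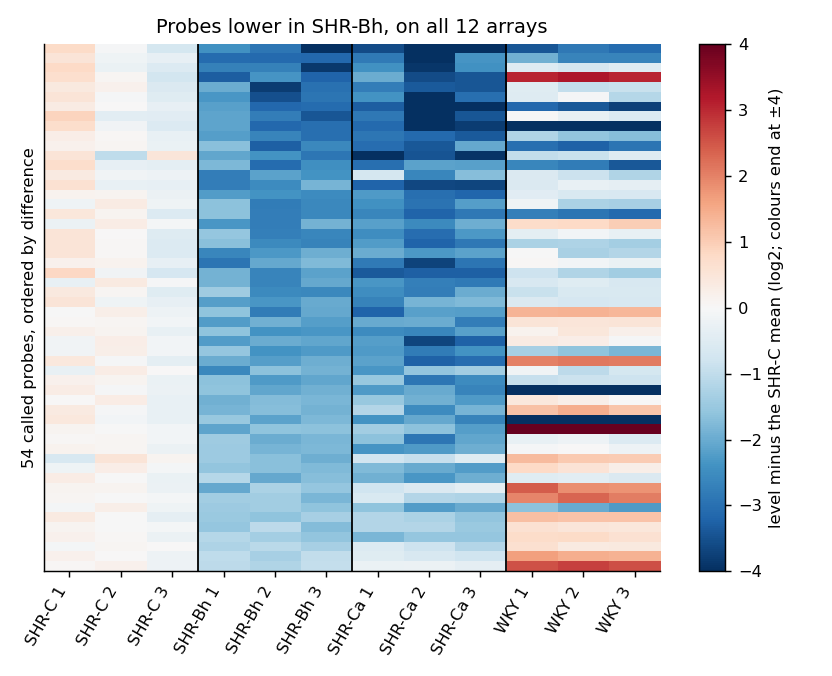
Rows are the 54 called probes and columns the 12 arrays, and the colour is the level of a probe minus its SHR-C mean (log2, colours ending at ±4). All 3 SHR-Bh columns are below the SHR-C columns in all 54 rows. The call does not require this, but it selects for a wide gap between the 2 groups. The SHR-Ca columns share the same controls, and the WKY columns are mixed.

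Ultraconserved elements were covered by 962 probes for 481 elements, 1 for each strand. Many such elements lie in or near genes of development and RNA processing, and their transcripts mostly do not code for protein. Only 203 of the probes (21.1%), from 168 elements, were bright enough to be tested. Their median difference was -0.16, against 0.02 for all tested probes, and 57 of the 203 had passed the filter only through SHR-C, against 3 only through SHR-Bh. At an unadjusted p under 0.05 there were 18 lower and 18 higher ultraconserved probes, 8.87% of the 203 each way, against 7.27% and 4.72% of all tested probes. Past the adjusted threshold 2 were lower (0.985%, against 0.244% of all) and 0 were higher.

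The probe for the plus strand of element uc.462 read -0.37, -0.34 and -0.52 on SHR-C 1 to 3 and -1.83, -2.40 and -2.23 on SHR-Bh 1 to 3. Every treated array was below every untreated one and all were well above background, with a 3.34-fold lower mean (difference -1.74, SE 0.29, limma adjusted p = 0.045). The opposite strand of uc.462 was not bright enough to be tested, with mean levels of -4.002 in SHR-C and -4.46 in SHR-Bh. The minus strand of element uc.138 read -2.05, -1.67 and -2.03 on the SHR-C arrays and -4.15, -3.91 and -4.002 on the SHR-Bh arrays. These groups were separated too, by a fitted 4.29-fold (difference -2.10, SE 0.33, limma adjusted p = 0.033). In SHR-Bh the probe was well above background on 1 array only, so it had entered the test through SHR-C alone. The size of this fall is not measured on the other SHR-Bh arrays. Its plus strand differed by -1.15 (SE 0.80, limma adjusted p = 0.56), and there SHR-C 1 at 0.64 lay far above SHR-C 2 at -2.75 and SHR-C 3 at -1.93. Both calls were near the threshold: leaving out any 1 array other than SHR-Bh 1 put their adjusted p between 0.0796 and 0.218.

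Named genes were few. Accessions on 39 probes matched 38 genes, of which 31 could be tested, and none passed the adjusted threshold in either direction (lowest limma adjusted p 0.38). Unadjusted p-values below 0.05 were found for P2rx2 and Ptk2b, 6.45% of the 31, against 12.0% of all tested probes. The value in SHR-Bh was the higher one for 22 genes and the lower one for 9, and the median of their differences was 0.11. Many of these genes are bright. Among tested probes of level classes 4 and 5, the brightest, the median difference was 0.124 and 0.125. No share of higher values among probes of like level was taken, so the split is not read as a lean of named genes. For 16 of the 31 the 95% interval of the difference lay within 2-fold either way, so a change of 2-fold or more was outside the interval. For the other 15 it was not, and a p that misses the threshold does not show that these genes were alike in both groups. Groups were fully separated for 3 genes with lower and 2 with higher values in SHR-Bh. These are 9.68% and 6.45% of the 31, near the 10.7% and 6.90% of all probes. A further 7 genes were too dim for the test. Map2, a microtubule protein of neurons, and Dlg4, a scaffold of synapses, were well above background on 3 of the 6 arrays, and Pdk3, a kinase that restrains pyruvate dehydrogenase, on 4. Nlrp3 (inflammasome sensor), Napepld (synthesis of anandamide), Lhcgr (receptor for luteinising hormone) and Gdnf (a neurotrophic factor) were well above background on 0 of the 6.

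**Figure D3:**
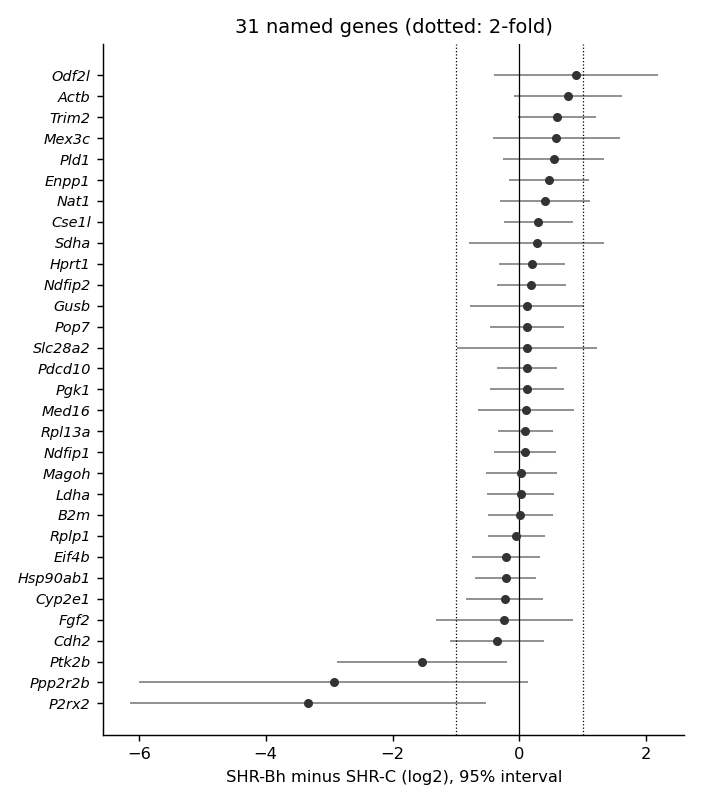
Points are the difference SHR-Bh minus SHR-C (log2, x axis) of the 31 tested genes and bars their 95% intervals from limma, with dotted lines at 2-fold. Most intervals are centred near 0, and those of P2rx2, Ppp2r2b and Ptk2b are wide and lie mainly below it.

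The 3 signalling genes with the largest differences were also ones in which the treated arrays disagreed. P2rx2, a cation channel opened by extracellular ATP, had levels of -1.47, -1.10 and -1.85 on SHR-C 1 to 3 and of -2.24, -5.67 and -6.53 on SHR-Bh 1 to 3. The groups did not overlap, but SHR-Bh 1 lay close to the controls and was the only treated array well above background. SHR-Bh 2 and 3 read below the lowest level well above background of their arrays, -3.51 and -4.89, so the fitted difference of -3.34 (SE 1.27, 95% interval -6.14 to -0.54, limma adjusted p = 0.38) rests on values that were not measured above background. Ppp2r2b, which directs protein phosphatase 2A to its substrates and is found mostly in brain, read 1.67, 1.69 and 1.33 in SHR-C and 1.42, -2.73 and -2.79 in SHR-Bh. Here SHR-Bh 1 fell inside the range of the controls while SHR-Bh 2 and 3 lay far below it. The difference was -2.93 (SE 1.39, 95% interval -5.99 to 0.14, limma adjusted p = 0.43). Ptk2b, a tyrosine kinase activated by calcium and by angiotensin II in vascular smooth muscle, had -0.42, -0.15 and -0.53 in SHR-C and -1.01, -2.41 and -2.29 in SHR-Bh. All treated values lay below all untreated ones, with SHR-Bh 1 again nearest to them, and the difference was -1.54 (SE 0.61, 95% interval -2.87 to -0.20, limma adjusted p = 0.38).

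With array weights, which gave SHR-Bh 1 a weight of 0.356 against 1.92 for SHR-Bh 2 and 2.73 for SHR-Bh 3, these 3 genes passed the threshold (limma adjusted p = 0.018 for P2rx2, 0.022 for Ptk2b and 0.025 for Ppp2r2b), while in no other setting did any of the 3 pass and their adjusted p reached 1 with session as a block. Those weights rest on 3 arrays a group and called 1466 lower and 1370 higher probes in all. SHR-Ca showed the same kind of split. Ppp2r2b read -3.22, 1.73 and 2.53 on SHR-Ca 1 to 3 and P2rx2 read -6.10, -1.79 and -0.95, so SHR-Ca 1 was the low array there. WKY was low on all arrays, with means of -2.58 for Ppp2r2b, -4.82 for P2rx2 and -2.54 for Ptk2b, but was scanned in a session of its own. The sizes also moved with the processing: normexp background correction, whose offset shrinks differences of dim probes, gave -0.80 for P2rx2, -0.80 for Ptk2b and -1.83 for Ppp2r2b. Scan session as a block gave -5.91, -2.55 and -5.47. The low SHR-Ca 1 enters these session values and SHR-C 1 and SHR-Bh 2 do not, so they are not sizes of the BSJY difference alone. The signalling list held 2 more tested genes. Fgf2, a growth factor for smooth muscle and endothelium, differed by -0.24 with an interval of -1.32 to 0.84, and Pdcd10, whose loss causes cavernous malformations of vessels, differed by 0.12 with an interval of -0.35 to 0.59.

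**Figure D4:**
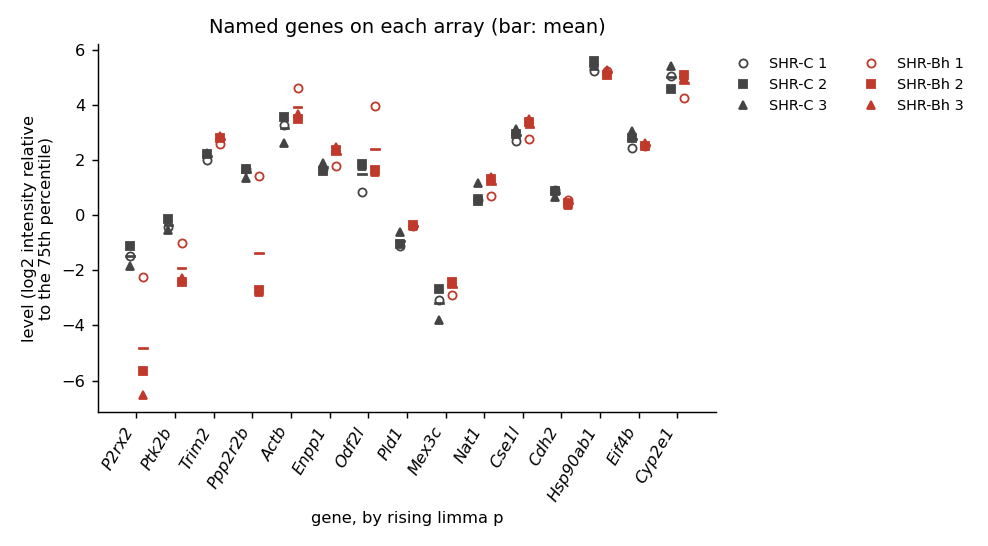
Level of the 15 named genes with the smallest limma p (x axis, in that order) on each SHR-C (grey) and SHR-Bh (red) array, with bars at the group means. Open circles mark replicate 1, and SHR-Bh 1 lies at the level of the controls for Ppp2r2b and above all other arrays for Odf2l and Actb.

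Ppp2r2b, P2rx2 and Odf2l belong to the 686 probes (3.09% of those tested) that were at least 4-fold higher on SHR-Bh 1 than on both other treated arrays. These were picked by their levels on the SHR-Bh arrays, so those levels only describe them. Their median level was -0.17 on SHR-Bh 1, -3.35 on SHR-Bh 2 and -3.49 on SHR-Bh 3, and it was -0.93, -0.78 and -1.08 on SHR-C 1 to 3. SHR-Bh 1 was at or above the lowest SHR-C array for 588 of them, and SHR-Bh 2 and 3 were both below it for 591. The choice of these probes favours both counts, and no share of all tested probes stands beside them. They are therefore not read as a result about SHR-Bh 1. On the arrays that did not choose them the median was -3.06 on SHR-Ca 1, -0.62 on SHR-Ca 2 and 0.11 on SHR-Ca 3, and -3.33 to -2.55 on the WKY arrays. SHR-Ca 1 was at least 4-fold below both other SHR-Ca arrays for 386 of the 686 probes, which is 56.3% of them and 59.6% of the 648 probes with that property, against 2.92% of all tested probes. Only 7 of the 686 (1.02%) were among the probes by which SHR-C 1 stood above its group (3.02% of tested probes). None of the 686 was among the 54 calls, which were 0.244% of all tested probes. The 686 were picked by a wide spread within SHR-Bh, which raises the SE. That outcome was therefore nearly fixed in advance. Which cells or steps set these probes apart was not tested, and none of the 42 marker genes was named on the array.

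**Figure D5:**
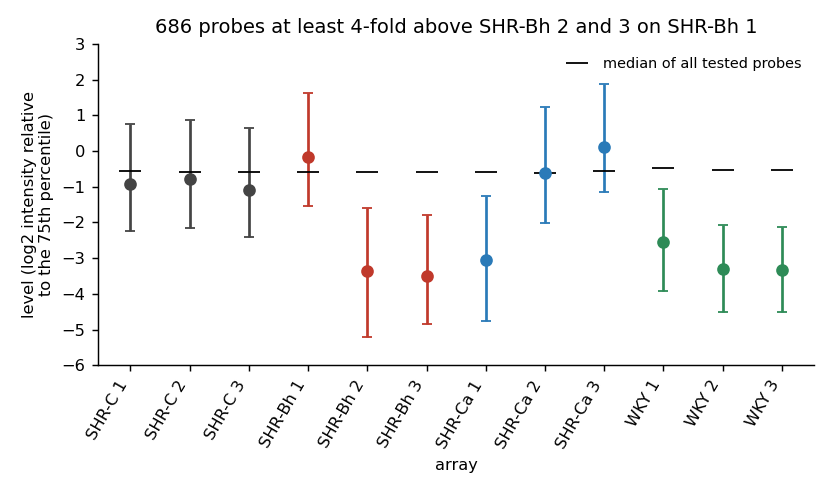
For each of the 12 arrays (x axis) the point is the median level, in log2 relative to the 75th percentile, of the 686 probes that were at least 4-fold higher on SHR-Bh 1 than on SHR-Bh 2 and 3, the bar spans the quartiles and the dash is the median of all tested probes. SHR-Bh 2, SHR-Bh 3, SHR-Ca 1 and the WKY arrays lie at medians of -3.49 to -2.55, and the SHR-C arrays, SHR-Bh 1, SHR-Ca 2 and SHR-Ca 3 lie between -1.08 and 0.11.

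Among genes with higher values in SHR-Bh, Trim2 had the smallest p and Odf2l the largest difference, and their promoters are printed below their values for that reason. Trim2, a ubiquitin ligase that protects axons by removing neurofilament light chain, read 2.01, 2.23 and 2.24 on SHR-C 1 to 3 and 2.58, 2.80 and 2.86 on SHR-Bh 1 to 3. Every treated array lay above every untreated one, but the difference of 0.59 (SE 0.28, 95% interval -0.02 to 1.20) did not pass (limma adjusted p = 0.42). Odf2l, a protein of centrosomes and cilia, read 0.85, 1.86 and 1.79 in SHR-C and 3.96, 1.65 and 1.56 in SHR-Bh. The higher mean rested on SHR-Bh 1 alone, since the other treated arrays lay inside the range of the controls, and the difference was 0.89 (SE 0.59, 95% interval -0.41 to 2.18, limma adjusted p = 0.54), or 0.10 without SHR-Bh 1. With scan session as a block both values turned negative, to -0.32 for Trim2 and -0.20 for Odf2l. The sequences run 5′ to 3′ from 250 bases before to 50 bases after the start of the gene, from RefSeq on build GRCr8, at chr2:171862395-171862694 on the minus strand for Trim2 and chr2:236696139-236696438 on the plus strand for Odf2l. Capitals mark matches to the GC box and the CCAAT box.
Trim2: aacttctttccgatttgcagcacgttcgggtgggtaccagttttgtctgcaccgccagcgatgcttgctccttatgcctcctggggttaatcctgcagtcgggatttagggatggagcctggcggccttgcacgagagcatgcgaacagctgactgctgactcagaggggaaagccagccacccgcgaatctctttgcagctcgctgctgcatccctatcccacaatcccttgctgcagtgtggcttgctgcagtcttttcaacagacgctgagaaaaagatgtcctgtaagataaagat
Odf2l: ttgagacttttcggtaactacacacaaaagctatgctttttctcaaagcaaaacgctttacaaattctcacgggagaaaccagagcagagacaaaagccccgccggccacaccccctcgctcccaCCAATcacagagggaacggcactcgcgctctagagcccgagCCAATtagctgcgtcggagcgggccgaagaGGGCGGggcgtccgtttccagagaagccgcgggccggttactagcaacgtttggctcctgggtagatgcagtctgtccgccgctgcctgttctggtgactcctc
Motifs were searched on either strand. The GC box was GGGCGG. For the CCAAT box the letters were those of its name, for the TATA box TATAAA, and for the core of the cyclic AMP response element TGACG. No match overlapped another. The Odf2l window held 1 GC box and 2 CCAAT boxes, and neither of the other motifs. The Trim2 window held none of the 4. Of 33469 promoters of this length, 33.1% held the GC box, 37.5% the CCAAT box, 14.2% the TATA box and 21.2% the core of the cyclic AMP response element. A match is a run of letters and does not show that a factor was bound.

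None of the other ubiquitin ligases and adaptors passed. Mex3c, an RNA-binding ubiquitin ligase, read -3.06, -2.67 and -3.82 in SHR-C and -2.91, -2.44 and -2.46 in SHR-Bh. These values overlapped, with a difference of 0.58 (95% interval -0.42 to 1.58, limma adjusted p = 0.60), which was 0.26 without SHR-C 3 and 0.099 with normexp background correction. Ndfip1 and Ndfip2, which recruit Nedd4-family ligases to membranes, differed by 0.08 and 0.19, both with an interval inside 2-fold. All 4 genes of this group had a higher value in SHR-Bh, as did 22 of all 31 tested genes. In the test 0 of 4 passed, as did 0 of the 31.

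Enzymes that act on lipids, nucleotides and foreign compounds did not pass either. Pld1, which makes phosphatidic acid and choline from phosphatidylcholine, read -1.11, -1.05 and -0.59 in SHR-C and -0.41, -0.36 and -0.38 in SHR-Bh. The treated arrays all lay above the untreated ones and within 0.0506 of each other, and the difference was 0.54 (SE 0.36, 95% interval -0.26 to 1.34, limma adjusted p = 0.54). Enpp1, which makes pyrophosphate, an inhibitor of calcification in the vessel wall, had 1.69, 1.62 and 1.90 in SHR-C and 1.77, 2.37 and 2.47 in SHR-Bh. SHR-Bh 2 and 3 were above all controls and SHR-Bh 1 was among them (difference 0.47, 95% interval -0.17 to 1.1006, limma adjusted p = 0.52). Nat1, an arylamine acetyltransferase, read 0.54, 0.50 and 1.16 in SHR-C and 0.71, 1.32 and 1.38 in SHR-Bh, which overlapped (difference 0.41, 95% interval -0.30 to 1.11, limma adjusted p = 0.61). Cyp2e1, a cytochrome P450 that oxidises ethanol and other small molecules, had 5.03, 4.59 and 5.41 in SHR-C and 4.25, 5.09 and 4.99 in SHR-Bh. Its difference of -0.23 lay within 2-fold (95% interval -0.84 to 0.38, limma adjusted p = 0.74) and depended on single arrays, being 0.032 without SHR-Bh 1, -0.033 without SHR-C 3 and -0.45 without SHR-C 2. The Cyp2e1 mean was 6.17 in SHR-Ca and -2.56 in WKY.

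Cdh2, the cell adhesion protein N-cadherin that joins smooth muscle cells, read 0.93, 0.86 and 0.65 in SHR-C and 0.56, 0.44 and 0.37 in SHR-Bh. The groups were separated by a small margin, with a difference of -0.36 (SE 0.34, 95% interval -1.09 to 0.38, limma adjusted p = 0.67). Its WKY mean of -2.64 lay far below both, at a spread of 0.17 (SD, n = 3). Cse1l, the export factor that returns importin alpha to the cytoplasm, read 2.68, 2.93 and 3.12 in SHR-C and 2.76, 3.39 and 3.48 in SHR-Bh. It overlapped, with a difference of 0.30 inside 2-fold (95% interval -0.25 to 0.84, limma adjusted p = 0.62).

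No gene of translation, fuel metabolism or the usual reference set passed. Eif4b, a helper of the helicase that opens messenger RNA for translation, read 2.43, 2.79 and 3.06 in SHR-C and 2.52, 2.52 and 2.61 in SHR-Bh, for a difference of -0.21 (95% interval -0.74 to 0.32, limma adjusted p = 0.74), or -0.058 without SHR-C 3. The ribosomal protein genes Rpl13a and Rplp1 differed by 0.09 and -0.05, and all 3 translation genes had intervals inside 2-fold. Of the fuel enzymes, Sdha of the respiratory chain differed by 0.27 (95% interval -0.79 to 1.33), the glycolytic Pgk1 by 0.11 and the brighter of both Ldha probes, for lactate dehydrogenase, by 0.02, while the dimmer Ldha probe gave -0.22. The 10 reference genes had a median of 0.10 and a range of -0.22 to 0.77, with 7 of 10 intervals inside 2-fold. At the high end was Actb, the cytoskeletal actin often used for scaling, with 3.27, 3.56 and 2.63 in SHR-C and 4.60, 3.49 and 3.67 in SHR-Bh. SHR-Bh 1 was above all other arrays, and the difference was 0.77 (SE 0.39, 95% interval -0.09 to 1.62, limma adjusted p = 0.45), or 0.42 without SHR-Bh 1 and 0.51 without SHR-C 3. At the low end was Hsp90ab1, a constitutive chaperone, with 5.21, 5.60 and 5.43 in SHR-C and 5.21, 5.10 and 5.27 in SHR-Bh (difference -0.22, 95% interval -0.70 to 0.26, limma adjusted p = 0.69).

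The 16 genes outside the 15 with the smallest p had differences between -0.24 and 0.27 and adjusted p-values between 0.75 and 0.99 (limma). Within an array the repeat spots of a named gene, 10 to 30 in number, scattered with a median SD of 0.055. The half-width of the 95% interval had a median of 0.61 over the named genes. Spread within the treated group was widest for P2rx2 (4.29 between its highest and lowest array), Ppp2r2b (4.21) and Odf2l (2.40), against 0.74, 0.36 and 1.01 within SHR-C.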

How the data were processed

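Cy3-labelled total RNA from thoracic aorta was hybridised to 12 single-colour Agilent arrays, 3 a group. The authors deposited 1 scanner output per array, in which the processed spot intensity had its background subtracted by Agilent Feature Extraction 11.0.1.1, per the file headers. Spots flagged as outliers were dropped, log2 of the deposited intensity was averaged per probe, and the 75th percentile of each array was subtracted. Of 43040 spots an array, 41623 were not controls and were used, and none of these was saturated. Of the probes with an accession, 23 of 62 matched no gene in the RefSeq table. A gene with several probes was represented by the brightest. The 4 groups were fitted together in limma 3.58.1 (R 4.3.3), with Benjamini-Hochberg adjustment over all tested probes and a threshold of 0.05, and 87 tested probes lacked a value on at least 1 of the 6 arrays. In a check on simulated arrays of 22082 probes, 8 of 100 changes of 2-fold and 69 of 100 of 4-fold were recovered, with 6 false calls. The simulation used a plainer scatter than these arrays show. Its counts therefore describe the simulated arrays only, and are not rates of recovery or of false calls in the real comparison. Values on every array were given for the 15 genes with the smallest p, for up to 2 unnamed probes a direction and for up to 3 ultraconserved probes a direction. The gene lists and the comparison were chosen with earlier results of these data known. Alternatives were quantile scaling, normexp background correction (offset 50, on the median signals, since the files read hold no mean signal), other filters, array sets, weights, variance priors and blocks, the mean of a gene's probes, and leaving out each array. The number of arrays limits the precision.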

Additional observations from a re-analysis of the deposited data

How the results depend on the processing

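The 54 lower probes had a lower value in SHR-Bh under every alternative in which they were tested. Where only the filter, arrays, weights or variance prior changed, this was fixed in advance, because their groups did not overlap. Their count depended on the processing. It was 25 with quantile normalization, 5 with normexp correction (where the median difference of the 54 was -0.57 in place of -2.16), 5 with no filter on dim probes, 21 with the strict filter, 28 with an intensity trend and robust prior, and 0 with only the 6 arrays of both groups, only the 9 SHR arrays, or scan session as a block. With array weights 2836 probes passed, 1466 lower and 1370 higher. With outlier spots kept 53 passed. Leaving out 1 array gave 0 to 134 calls in all, 0 to 85 lower and 0 to 49 higher. The count of 2 ultraconserved probes became 30 with array weights and 0 with quantile normalization, normexp, no filter, the strict filter, the trend, either smaller set of arrays, the replicate block and the session block, and 0 to 3 when 1 array was left out. Replicate numbers did not pair the arrays, with correlations of deviations for the same number of 0.09, -0.12 and 0.23. The replicate block called 45 probes lower and 0 higher, of which 36 were among the 54.

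For the named genes, the session block reversed Trim2 to -0.32, Odf2l to -0.20 and Ldha to -0.011. Ldha was -0.10 as the mean of its probes and -0.12 to 0.16 when 1 array was left out. Cyp2e1 was 0.043 with array weights and -0.45 to 0.032 when 1 array was left out. The session block values run through the SHR-Ca arrays and leave out SHR-C 1 and SHR-Bh 2. The cause of the other shifts was not tested. The other genes among the 15 with the smallest p kept their direction in all settings run. Most changes of 2-fold were missed in the simulated arrays, whose noise was simpler than that of the real ones. Probes not well above background on any SHR-Bh array carry only approximate bounds.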
